A study of Mus musculus with 144 samples.

Results

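The cells described here were the 39 single neural stem cells of 7-week mice whose library titles begin with A2 and whose stage label reads aNSC (16 cells) or qNSC (23 cells) (active and quiescent cells, respectively). They were 39 of the 117 labelled single cells, 131 single cells and 144 libraries of the series. All came from the subventricular zone and were sorted by flow cytometry for expression of the nuclear receptor Tlx, encoded by Nr2e1. The study set out to describe how such cells differ from one another in vivo. Bulk pools were left out. The titles place the 39 cells in 3 sets: A2_1 with 7 aNSC and 8 qNSC cells, A2_2 with 5 and 7, and A2_3 with 4 and 8. The labels name no animal, sex, strain, treatment or reporter allele, and do not say whether the sets are separate mice, so p-values measure only the spread between sets, which may be technical. How the stage of each cell was assigned is not given in the sources used here. If these transcriptomes were used to assign it, the p-values overstate the evidence.

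In the subventricular zone, radial glia-like stem cells share much of their transcriptome with astrocytes and divide rarely. Activated stem cells enter the cell cycle and give rise to transit-amplifying progenitors and then to neuroblasts, which migrate to the olfactory bulb. Tlx acts in adult neural stem cells as a transcriptional repressor that keeps them self-renewing.

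Values are TPM, a transcript abundance scaled for transcript length and library total that keeps no read count, so the depth of each cell was unknown. The 16 aNSC cells held between 1984 and 3482 genes at 1 TPM or more (median 2631.5), and the 23 qNSC cells between 1028 and 3028 (median 1966). Malat1, a nuclear long non-coding RNA, took 0.16% to 3.17% of the TPM of an aNSC cell (median 1.465%) and 2.27% to 45.27% of a qNSC cell (median 10.84%). The median for qNSC cells was 5.77% in set A2_1, 10.84% in A2_2 and 24.91% in A2_3. As TPM is relative, a transcript that takes more of the total leaves less for the others, and after rescaling each cell without Malat1, mitochondrial and ribosomal RNA rows the later comparison gave 430 higher genes, all 430 among those reported below, and 71 lower, 66 of them among those below. The highest correlation of log2(TPM + 1) between any pair of the 39 cells was 0.532, so no library looked like a copy of another.

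The labels were first set against marker lists, using the mean log2(TPM + 1) over a list as the value of a cell. Over 48 astroglial genes the aNSC cells lay between 1.57 and 4.51 (median 2.325) and the qNSC cells between 1.16 and 8.82 (median 6.20). Of the 23 qNSC cells, 19 lay above every aNSC cell. Over 81 ribosomal protein genes the aNSC cells lay between 6.34 and 9.29 (median 8.205) and the qNSC cells between 1.67 and 6.64 (median 3.05), and 14 of the 16 aNSC cells lay above every qNSC cell. Over the activation and transit-amplifying list the values were 1.66 to 4.15 (median 2.835) and 0.29 to 2.69 (median 0.77). The lists for ependymal, oligodendrocyte, oligodendrocyte precursor, microglial, endothelial and mural, mature neuron, choroid plexus and erythroid cells had no cell above 1.32. Gfap, the classical astrocyte filament gene, reached 1 TPM in none of the 39 cells, which allows a share of up to 18.8% of aNSC and 13% of qNSC cells with the transcript.

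Among the qNSC cells, 2 stood apart by their neuroblast and astroglial genes. They were the only qNSC cells whose neuroblast genes lay above their astroglial genes. One, in set A2_2, had an astroglial mean of 1.61 and a neuroblast mean of 5.41. The other, in set A2_3, had 1.16 and 5.60. In the other 21 qNSC cells the astroglial mean lay between 2.86 and 8.82 and the neuroblast mean between 0.32 and 1.44. Stmn1 was at 6678 and 8889 TPM in the pair and Tubb3 at 2962 and 1884 TPM, while the brain aldolase Aldoc was at 1.12 and 1.15 TPM. Another qNSC cell, in set A2_2, held the lowest astroglial mean of those 21, 2.86, with a mean of 3.15 over 57 DNA replication genes, against at most 1.35 in the other qNSC cells. The pair was kept in the comparison, and counts without it are given beside the results. It was set apart by the neuroblast and astroglial lists, so for those lists the counts without it add no support.

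**Figure D1:**
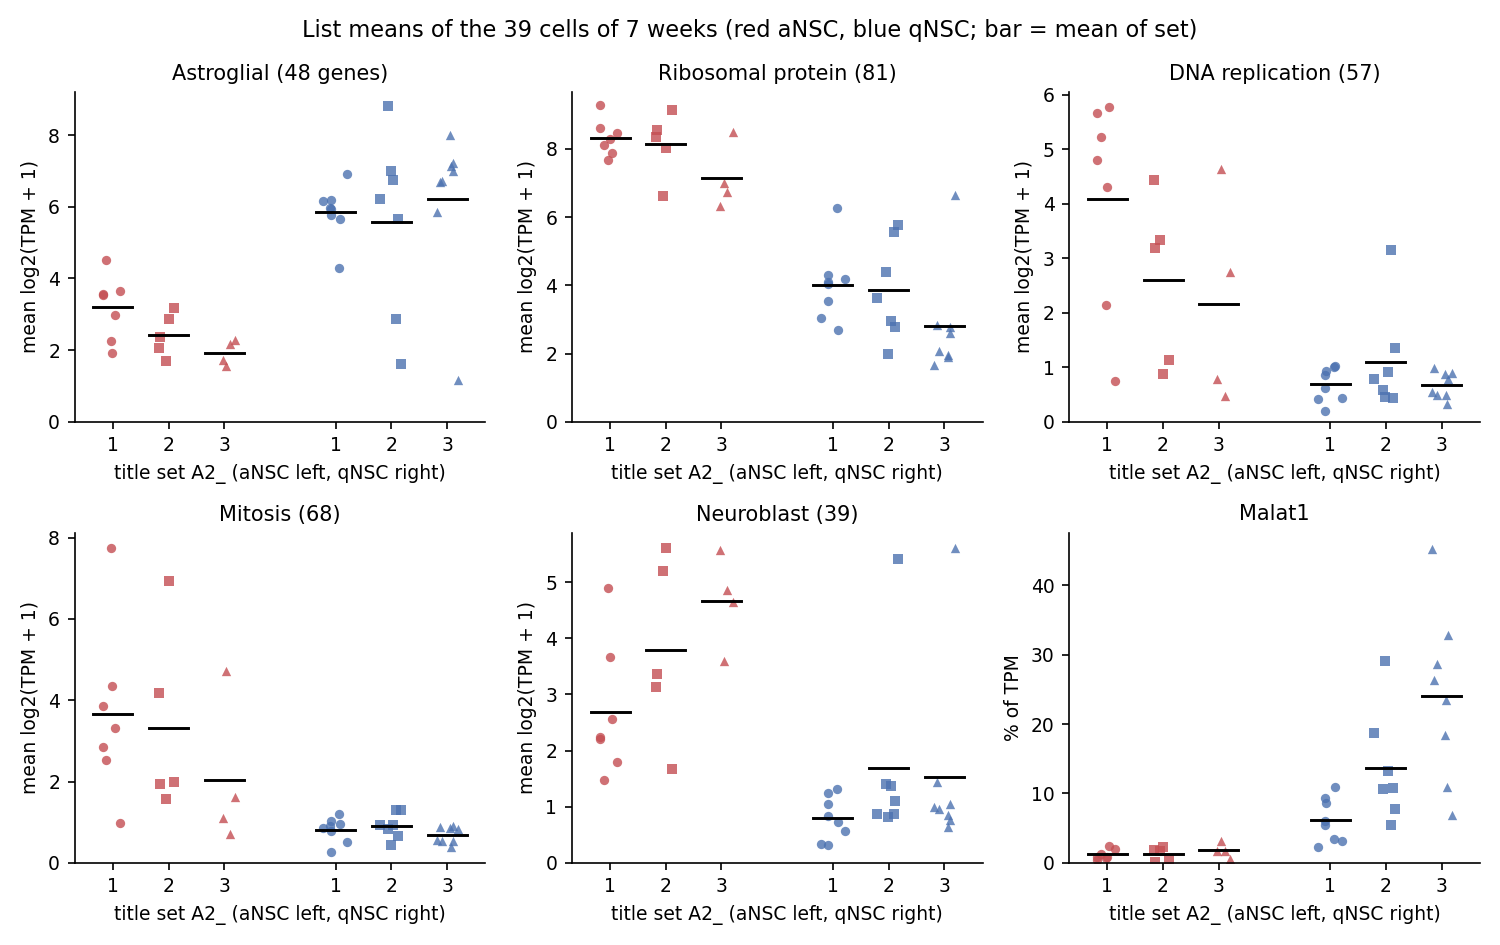
Each point is 1 of the 39 cells, red for aNSC and blue for qNSC, placed by title set (horizontal axis), and bars are set means. The vertical axes give the mean log2(TPM + 1) over a list, or the percent of TPM for Malat1. The 2 qNSC cells with neuroblast means of 5.41 and 5.60 are the lone high blue points of that panel and the lowest blue points of the astroglial panel.

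The first question was which transcripts part active from quiescent cells at this age. Far more genes were higher than lower in aNSC. Among lists with at least 13 tested genes, the shares called higher were greatest for ribosomal proteins (79.0%), translation factors (48.6%), chromatin (43.2%), splicing (42.9%) and the cytoskeleton (39.4%), and the share called lower for astroglial genes (53.7%). The lists were not tested against each other. They share members, so their counts are not separate results. Stmn1 counts in the neuroblast, mitosis and cytoskeleton lists, Hmgb1 in the mitosis and chromatin lists, and Sp8 in the activation and neuroblast lists. Of 3907 genes tested with limma on the stage means of the 3 sets, 502 (12.8%) were higher and 69 (1.77%) were lower in aNSC at an adjusted p under 0.05, and 1260 had an unadjusted p under 0.05. Each of the 502 and of the 69 kept its sign in 3 of 3 sets. That follows largely from the call, which was made on the same 3 differences, so it adds no support. Over all tested genes the median difference was 1.15 on the log2(TPM + 1) scale, toward aNSC, and 2960 genes were positive, so single differences are best read against that shift. Quantile normalization, which gives every cell the same distribution of values, brought the median to 0.23 and the calls to 249 higher and 225 lower. Without the 2 neuroblast-rich qNSC cells, 559 genes were higher and 87 lower. Without set A2_1 the counts were 45 higher and 16 lower, without A2_2 they were 291 and 40, and without A2_3 they were 211 and 24. Of 83 called genes named by rule, 33, 62 and 55 kept their call without A2_1, A2_2 and A2_3, and none changed sign. With the median over cells in place of the mean, 46 of the 81 with a value kept their call. Apoe, Slc1a3, Hmgn2, H2afz, Tubb5 and Malat1 were among the 35 that lost it. For most single genes below, only losses without a set are given. The calls kept without A2_1 all sat at an adjusted p of 0.0498, just under the threshold. No gene passed without the filter on low values (21924 genes tested, 1497 at an unadjusted p under 0.05, limma) or with the log2 taken after averaging TPM (668 at an unadjusted p under 0.05, limma). Likewise, no gene passed when the number of genes detected was fitted as a covariate (448 at an unadjusted p under 0.05, limma), so the part of detection in these calls cannot be told apart from the stage with 3 sets.

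The share of cells that held a called gene is given as a description, as it comes from the same values that made the call. The higher genes were at 1 TPM or more in a median of 81.3% of aNSC and 39.1% of qNSC cells. The lower genes were at that level in a median of 25% of aNSC and 78.3% of qNSC cells, and all tested genes in 43.8% and 26.1%. No tested gene had all 16 aNSC cells above all 23 qNSC cells, or the reverse.

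The transcripts with the largest falls in aNSC belong to the astroglial program. Aldoc, the brain isoform of aldolase, ranged from 0 to 3082 TPM in aNSC cells (median 0.99) and from 1.12 to 17236 in qNSC cells (median 4837), a difference of −9.05 on the log2 scale (SE 0.82, adjusted p = 0.00238). Clu encodes a secreted chaperone and ranged from 0.35 to 19.5 TPM (median 1.38) and from 1.74 to 18897 (median 4722), a difference of −8.96 (SE 0.81, adjusted p = 0.00238). Gja1, which encodes the gap junction protein connexin 43, ranged from 0 to 226 TPM (median 0.78) and from 1.15 to 9872 (median 2265), a difference of −8.55 (SE 0.80, adjusted p = 0.00238). The ranges of these 3 genes overlapped through a few qNSC cells, the neuroblast-rich pair among them, that held almost no transcript. For Aldoc and Gja1, an aNSC cell or 2 of set A2_1 also stood above the rest, as the plot of single genes by cell shows.

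Of 41 tested astroglial genes, 22 were lower and none was higher in aNSC, with a median difference of −3.60 against 1.15 over all tested genes. Plpp3, a phosphatase of lipid messengers, ranged from 0 to 86.7 TPM in aNSC (median 0.39) and 0.09 to 3339 in qNSC (median 859), a difference of −7.00 (SE 0.89, adjusted p = 0.00591). Apoe, the main lipid carrier of the brain, had medians of 2.67 and 2705 TPM and a difference of −6.92 (SE 1.04, adjusted p = 0.00814). Cst3, a secreted protease inhibitor, was at 1 TPM or more in all 39 cells, with medians of 883 and 16085 TPM and a difference of −3.50 (adjusted p = 0.0409). Aqp4, the water channel of astrocyte endfeet, was at 1 TPM or more in 1 aNSC and 5 qNSC cells, with a difference of −1.91 that did not pass (adjusted p = 0.211). In the promoters of 39 matched astroglial genes the full nuclear factor I site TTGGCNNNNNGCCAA was not found on either strand, and 0.0444% of all genes held it. A site this rare would hardly be met in 39 genes, so no conclusion is drawn from its absence. Without the neuroblast-rich pair, 24 of 42 tested astroglial genes were lower, which adds no support, as low astroglial genes helped to set the pair apart. Without set A2_1, 8 of 42 were, and without set A2_3, 12 of 40, and in both cases Cst3 lost its call.

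A list of transporters, channels and pumps gave 7 lower genes of 16 tested, with a median of −2.62 and no positive difference. Gja1, described above, and Slc27a1 are among the 7. Slc1a3, a glial glutamate transporter, ranged from 0.13 to 1596 TPM in aNSC (median 91.4) and from 3.15 to 7498 in qNSC (median 3522), a difference of −5.77 (SE 0.83, adjusted p = 0.00675). It was at 1 TPM or more in 11 of 16 aNSC cells, so many active cells still held the transcript. Its relative Slc1a2 differed by −5.39 (SE 1.02, adjusted p = 0.0134), with medians of 1.22 and 539 TPM. The sodium pump subunit gene Atp1b2 differed by −6.13 (SE 1.35, adjusted p = 0.0224), with medians of 2.04 and 1179.9 TPM. Grm3, a metabotropic glutamate receptor, reached 1 TPM in no aNSC cell and in 15 qNSC cells. The calls for Atp1b2 and Grm3 were lost without set A2_2 and without set A2_3. That for Slc1a2 was lost without A2_1 and without A2_3, that for Slc1a3 without A2_1, and that for Slc27a1 without any 1 of the 3 sets.

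Metal binding and glutathione genes went both ways, with 4 lower and 4 higher of 18 tested. The metallothionein Mt3 had medians of 0.46 TPM in aNSC and 1156 in qNSC (difference −6.72, adjusted p = 0.00628), and Mt1 medians of 14.7 and 3062 (−5.16, adjusted p = 0.017). The glutathione transferases Gstm1 (−6.51) and Gstm5 (−5.93) were the other lower members. Prdx2, a cytosolic peroxiredoxin, went the other way, with medians of 1447 TPM in aNSC and 1.87 in qNSC (difference 5.22, adjusted p = 0.0111). The higher members were joined by the ferritin light chain Ftl1 (4.39), the thioredoxin Txn1 (3.81) and the glutathione peroxidase Gpx1 (3.40). Mt1, Ftl1, Txn1 and Gpx1 lost their calls without A2_1 and without A2_3, and Mt3, Gstm5 and Prdx2 without A2_1. Ftl1 has many near-identical copies in the genome, and its reads could be split among them.

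Extracellular matrix and adhesion genes gave 8 lower and 1 higher of 20 tested. Timp3, an inhibitor of matrix metalloproteinases, reached 1 TPM in none of 16 aNSC cells (highest 0.45, which allows a share of up to 18.8%) and in 18 of 23 qNSC cells (median 264, highest 1302). Its difference was −6.28 (SE 0.80, adjusted p = 0.00591). Of the 5 qNSC cells under 1 TPM for Timp3, 2 were the neuroblast-rich pair. Cspg5, a brain proteoglycan, differed by −5.88, the syndecan Sdc4 by −5.77, the tetraspanin Cd63 by −5.62 and the heparin-binding growth factor Ptn by −4.87. Its relative Mdk was the higher member, with medians of 1465 TPM in aNSC and 6.96 in qNSC and a difference of 3.70 (SE 0.98, adjusted p = 0.0381). The call for Mdk was lost without any 1 of the 3 sets, Ptn lost its call without A2_1 and without A2_3, Cd63 without A2_2 and without A2_3, and Sdc4 without A2_3.

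Of the remaining large falls, Ttyh1, a membrane protein of the tweety family, was at 1 TPM or more in 1 of 16 aNSC and 20 of 23 qNSC cells (difference −6.30, adjusted p = 0.00591). Nkain4, named for its interaction with the sodium pump, was at that level in 1 and 16 cells (−5.97, adjusted p = 0.0113). The receptor for sphingosine 1-phosphate S1pr1 was likewise seen in 1 aNSC and 16 qNSC cells. S1pr1 had a highest value of 1.72 TPM in aNSC against 4173 in qNSC and a difference of −6.20 (SE 1.17, adjusted p = 0.0132), which was lost without set A2_3. The endothelin receptor gene Ednrb differed by −4.02 (adjusted p = 0.0355) and was the only other called member of 7 tested growth factor and receptor genes. Ednrb lost its call without A2_1 and without A2_3, and Ttyh1 and Nkain4 without A2_1.

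**Figure D2:**
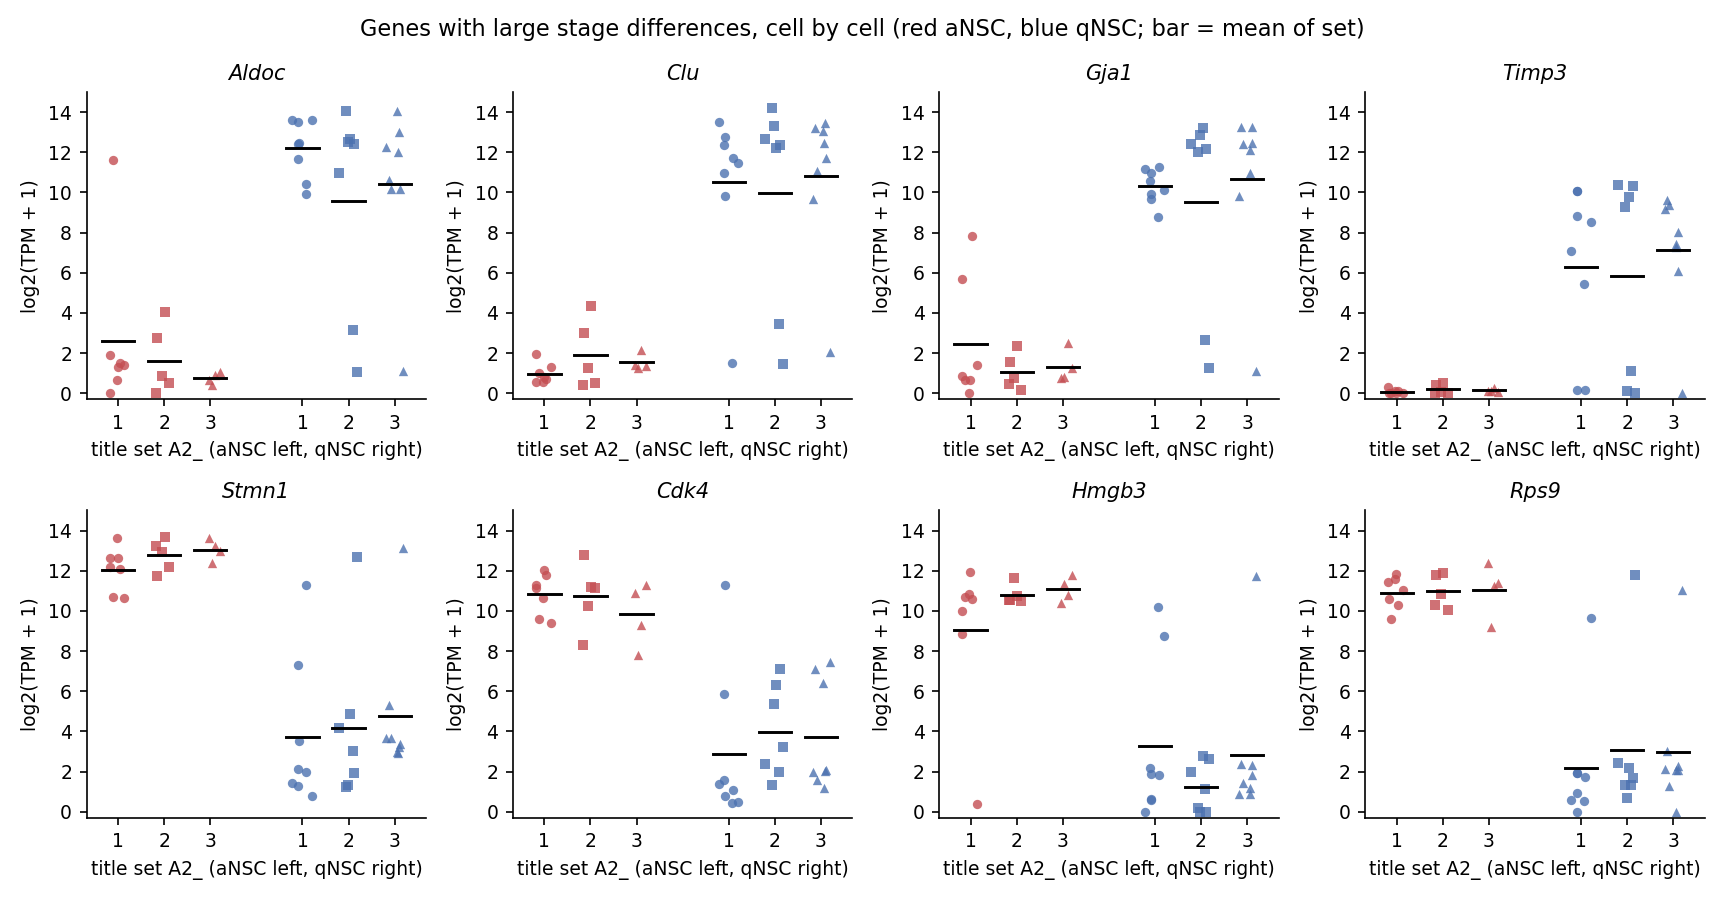
Each point is 1 cell, red for aNSC and blue for qNSC, by title set (horizontal axis), with log2(TPM + 1) on the vertical axis and bars at set means. For Aldoc, Clu, Gja1 and Timp3 most blue points lie far above the red ones, and for Stmn1, Cdk4, Hmgb3 and Rps9 most red points lie above most blue ones. The qNSC cells at or above the lowest aNSC cell number 3 for Stmn1, 1 for Cdk4, 3 for Rps9 and 19 for Hmgb3, where the lowest aNSC cell is at 0.33 TPM.

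Of 27 tested genes in the Notch, BMP and stem cell factor lists, 4 were called in either direction (14.8%), close to the 14.6% of all tested genes. The Notch receptor Notch2 ranged from 0 to 420.4 TPM in aNSC (median 0.495, at 1 TPM or more in 5 of 16 cells) and from 0 to 755 in qNSC (median 135, in 21 of 23 cells). Its difference was −4.30 (SE 0.78, adjusted p = 0.0121), and it was the 1 called member of 6 tested Notch genes. The Notch target genes Hes1 and Hes5 were too low to test, with Hes1 at 1 TPM or more in 0 of 16 aNSC and 7 of 23 qNSC cells and Hes5 in 1 and 5. Id2, a target of BMP signalling, differed by −3.62 (SE 0.94, adjusted p = 0.0361) with medians of 2.71 and 735 TPM. The call for Id2 was lost without any 1 of the 3 sets and with the median over cells. It was also lost with a trend in the variance prior and without the 10% of cells with the fewest genes. Notch2 lost its call without A2_1 and without A2_3. The related Id3 was at 1 TPM or more in no aNSC cell and 5 qNSC cells, with a difference of −2.15 that did not pass (adjusted p = 0.151). Id4 had a difference of 0.06 (adjusted p = 0.965) whose sign changed with the normalization.

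Of 15 tested stem cell and lineage transcription factors, Sox9 and Nfix passed, in opposite directions. Sox9, a glial and stem cell factor, ranged from 0 to 438 TPM in aNSC (median 46.8) and from 0 to 2492 in qNSC (median 834), a difference of −4.40 (SE 1.08, adjusted p = 0.0321). Nfix, a nuclear factor I family member, ranged from 0 to 1523 TPM (median 172) and from 0 to 726 (median 0.27), a difference of 4.26 (SE 0.82, adjusted p = 0.0141). The ranges of both genes overlapped widely, and both calls were lost without set A2_1 and without set A2_3. Both calls were also lost with the median over cells and without the 10% of cells with the fewest genes. Sox9 lost its call without the block too. The sorting gene Nr2e1 was at 1 TPM or more in 8 of 16 aNSC and 7 of 23 qNSC cells, with a difference of 1.36 (SE 1.10, adjusted p = 0.416). A row with the name gfp, of which the labels give no origin, was at that level in 8 and 4 cells (1.92, adjusted p = 0.19). Sox2, a stem cell factor, was seen in 7 cells of each stage (0.71, adjusted p = 0.623).

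Of 16 tested activation and transit-amplifying genes, 5 were higher and none lower (median 2.96). Egfr, the epidermal growth factor receptor that marks activated stem cells, was at 1 TPM or more in 6 of 16 aNSC and 2 of 23 qNSC cells (difference 1.25, adjusted p = 0.324). Those 2 qNSC cells held 1363 and 279 TPM of Egfr, both above the highest aNSC cell at 221 TPM. Mki67, the common proliferation marker, was seen in 4 and 0 cells, and the progenitor filament gene Nes in 2 and 0, both too low to test. The limit for 0 of 23 cells is a share of 13%. The growth factor receptor gene Fgfr3 (−0.09) and the filament gene Vim (0.45) did not pass either. The differences of Nr2e1, gfp, Sox2, Egfr, Fgfr3 and Vim changed sign under at least 1 alternative, so no direction is read from them. Cdk4, which drives cells through G1 with the D-type cyclins, ranged from 223 to 7086 TPM in aNSC (median 2106) and from 0.37 to 2467 in qNSC (median 3.11), a difference of 6.94 (SE 0.82, adjusted p = 0.00591). Ccnd2, which encodes cyclin D2, ranged from 0.26 to 3172 (median 908) and from 0.1 to 863 (median 1.72), a difference of 5.58 (SE 0.78, adjusted p = 0.00669). Every aNSC cell held Cdk4, and 1 qNSC cell, at 2467 TPM, lay within the aNSC range, with the next qNSC cell at 176.8 TPM. Ccnd2 lost its call without A2_1. Ccnd1, encoding cyclin D1, was seen in 2 aNSC and 1 qNSC cells. Cdk6 had a difference of 2.61 that did not pass (adjusted p = 0.0869).

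Replication genes were compared next, as cells in S phase copy their DNA with the MCM helicase, the PCNA clamp and its loader. Of 43 tested members, 13 were higher and none was lower in aNSC, with a median difference of 2.37. Of these 13, 10 had a promoter in the RefSeq table of build GRCm38.p6 (300 bases from 250 before the start of the gene). In 4 of the 10, those of Mcm7, Cdc6, Mcm5 and Mcm6, the window held a site of the E2F family, TTTCCCGC or TTTGGCGC on either strand. Those of Prim1, Pcna, Rrm2, Rfc4, Rpa2 and Uhrf1 did not, and Mcm4, Gins2 and Tipin were not in the table. The 3 sites with the largest expression differences are shown, picked for holding a match, because E2F factors are the textbook regulators of these genes. Capitals mark the site, here read on the strand opposite to those letters, with 30 bases to each side, 5′ to 3′ on the strand of the gene.
Mcm7 (chr5:138172011-138172078, minus strand, site at −165 from the start): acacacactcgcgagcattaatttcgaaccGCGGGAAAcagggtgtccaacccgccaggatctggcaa
Cdc6 (chr11:98907983-98908050, plus strand, site at −138): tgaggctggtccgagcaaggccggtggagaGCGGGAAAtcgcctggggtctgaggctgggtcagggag
Mcm5 (chr8:75109330-75109397, plus strand, site at −149): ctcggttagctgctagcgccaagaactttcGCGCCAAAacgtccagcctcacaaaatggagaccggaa

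Of 57 replication genes, 42 matched the promoter table, and 14 of them (33.3%) held either site, against 1.8% of all 27025 genes there. The letters are a description of the window, not evidence of binding. Cdc6, which loads the helicase, was at 1 TPM or more in 8 of 16 aNSC and 0 of 23 qNSC cells (difference 3.83, SE 0.90, adjusted p = 0.0275). The helicase gene Mcm5 was seen in 8 and 0 cells (3.56, SE 0.78, adjusted p = 0.0217), and Mcm7 in 10 and 5 cells (4.20, SE 0.96, adjusted p = 0.0253). Mcm4 was seen in 9 and 1 cells (4.38) and Mcm6 in 10 and 2 (3.16). All 5 were under 1 TPM in the other aNSC cells, and 1 qNSC cell held Mcm7 at 968 TPM. The 2 qNSC cells with Mcm6 held 1299 and 927 TPM, both above the highest aNSC cell at 576 TPM. The calls for Mcm5 and Mcm6 were lost without any 1 of the 3 sets, that for Cdc6 without A2_1 and without A2_2, that for Mcm7 without A2_1 and without A2_3, and that for Mcm4 without A2_1.

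The largest differences among replication genes were in nucleotide supply and priming. Rrm2, a subunit of ribonucleotide reductase, ranged from 0 to 6158 TPM in aNSC (median 1359.6) and from 0.17 to 187 in qNSC (median 1.25), a difference of 5.14 (SE 1.09, adjusted p = 0.0199). Prim1, a primase subunit, ranged from 0 to 1371 TPM (median 417) and from 0 to 2.34 (median 0.29), a difference of 5.09 (SE 0.81, adjusted p = 0.00879). Pcna ranged from 0 to 4024 TPM (median 1097) and from 0 to 4243 (median 1.27), a difference of 5.02 (SE 0.90, adjusted p = 0.0115). Pcna and the clamp loader gene Rfc4 had their highest values in a qNSC cell, for both genes the 1 with the replication mean of 3.15 named above. Prim1 had 10 aNSC cells above every qNSC cell. Without set A2_1 none of 35 tested replication genes passed (limma, 14 at an unadjusted p under 0.05), with a median of 2.02. Rrm2 also lost its call without A2_2, and Rfc4 without A2_3. The aNSC cells of A2_1 had a set mean of 4.09 over this list, against 2.59 in A2_2 and 2.16 in A2_3.

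Mitosis genes gave 15 higher and no lower genes of 45 tested, with a median of 2.66. Stmn1 and Hmgb1 are among the 15 and also count in other lists. Cks1b, a small regulator of cyclin-dependent kinases, ranged from 0 to 2185 TPM in aNSC (median 406) and from 0 to 4.27 in qNSC (median 0.63), a difference of 5.50 (SE 0.88, adjusted p = 0.00886). Top2a, the topoisomerase that untangles replicated chromosomes, was at 1 TPM or more in 9 and 8 cells but never above 3.3 TPM in qNSC, against 1311 in aNSC (3.90, SE 0.91, adjusted p = 0.0275). Pbk, a mitotic kinase, was seen in 11 and 8 cells, with highest values of 1990.3 and 1.78 TPM (5.22, adjusted p = 0.0106). Cdk1, the kinase that starts mitosis, had a difference of 2.06 that did not pass (adjusted p = 0.175), with highest values of 853 and 3.39 TPM. Its difference changed sign with genes detected as a covariate, so no direction is read from it. Hmgb2 and Tuba1b, which the list holds but which act beyond mitosis, differed by 5.48 and 5.67. In the promoters of 56 matched mitosis genes, TTTGAA, the cell cycle homology region, was found in 38 (67.9%) and CCAAT, the binding site of NF-Y, in 43 (76.8%), on either strand. Over all genes the shares were 20.2% and 41.1%. Without set A2_1, 1 of 41 tested mitosis genes passed, with 8 of 41 without A2_2 and 7 of 52 without A2_3. Of the genes named here, Cks1b, Top2a, Pbk, Hmgb2 and Tuba1b lost their calls without A2_1, and Top2a and Hmgb2 also without A2_2. Hmgb1 lost its call without any 1 of the 3 sets.

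The active cells were not alike in these lists. Over 57 replication genes the aNSC cells lay between 0.47 and 5.77 (median 3.255) and the qNSC cells between 0.20 and 3.15 (median 0.78), and 9 of 16 aNSC cells lay above every qNSC cell. Over 68 mitosis genes they lay between 0.72 and 7.74 (median 2.68) and between 0.27 and 1.31 (median 0.85), and 13 of 16 aNSC cells lay above every qNSC cell. An aNSC cell of set A2_1 with a mitosis mean of 7.74 had a replication mean of 2.15, and a cell of set A2_2 had 6.93 and 0.88. In all, 12 aNSC cells and 1 qNSC cell had a mean above 2 in at least 1 of the lists. Over the 16 aNSC cells the replication and mitosis means had a Pearson correlation of 0.18 and a Spearman correlation of 0.44. Both are described without a test since the cells share 3 sets and a total TPM.

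**Figure D3:**
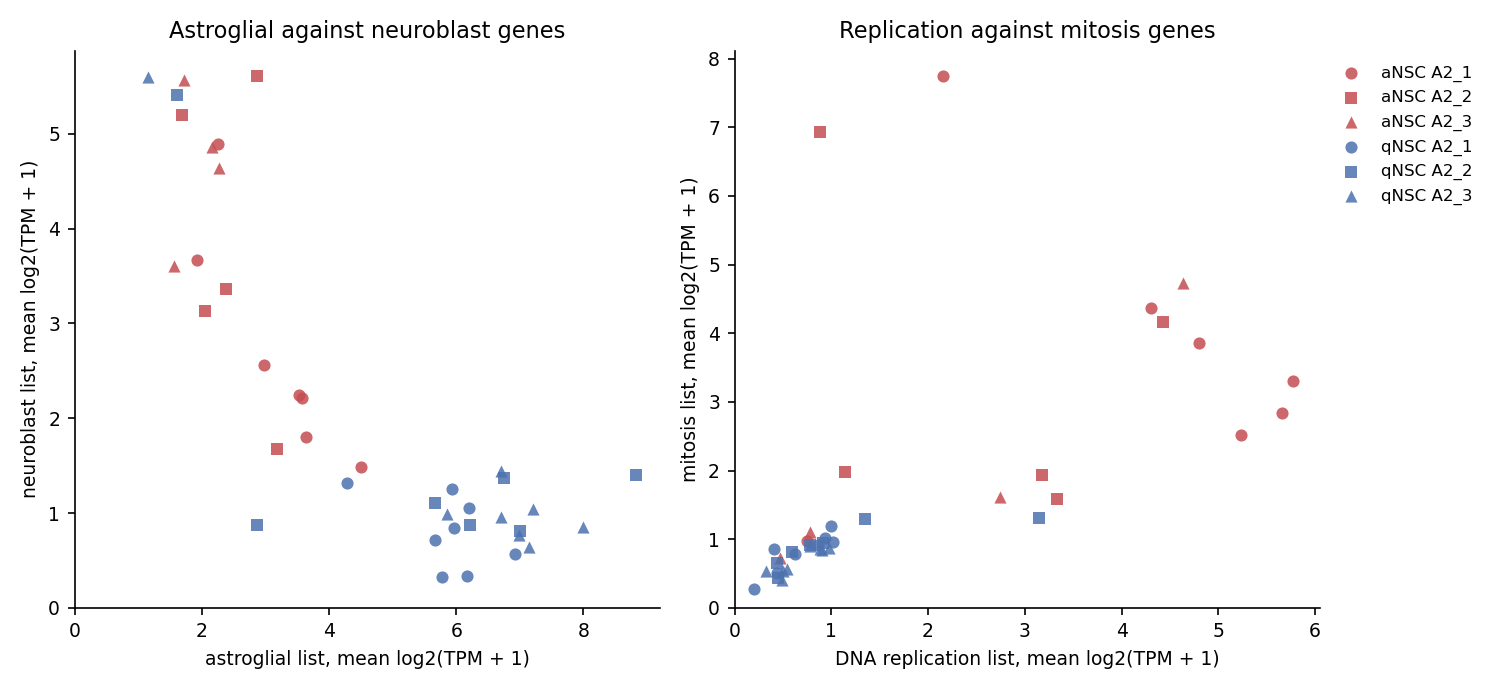
Each point is 1 of 39 cells, with list means of log2(TPM + 1) on both axes, red for aNSC and blue for qNSC, and the shape gives the title set. On the left, astroglial against neuroblast genes, 10 of 16 aNSC and 2 of 23 qNSC cells have the neuroblast mean above the astroglial mean. On the right, replication against mitosis genes, the aNSC cells spread along both axes and most qNSC cells lie near the origin.

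Neuroblast genes gave 9 higher and no lower members of 28 tested, with a median of 2.90. Stmn1, encoding a protein that destabilizes microtubules, ranged from 1572 to 13339 TPM in aNSC (median 6284) and from 0.75 to 8889 in qNSC (median 8.22), the largest difference of any gene with a rise, 8.40 (SE 0.78, adjusted p = 0.00238). It was high in all 16 aNSC cells, and outside the neuroblast-rich pair 1 qNSC cell reached 2544 TPM. Tubb3, the neuronal tubulin, ranged from 0 to 4147 TPM (median 717) and from 0 to 2962 (median 0.86), a difference of 6.26 (SE 0.89, adjusted p = 0.00672). Dpysl3, which acts in axon growth, ranged from 0 to 1606 (median 376) and from 0 to 291 (median 0.48), a difference of 6.40 (SE 0.85, adjusted p = 0.00628). Outside the pair, no qNSC cell held more than 5.94 TPM of Tubb3 or 2.41 TPM of Dpysl3, and 12 and 13 aNSC cells were above these levels. As the pair was set apart by its neuroblast genes, these levels are only a description.

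Other early neuronal genes passed in part. The neuronal RNA-binding protein genes Elavl3 (5.29, adjusted p = 0.0113) and Elavl4 (4.78, adjusted p = 0.0112) and the interneuron factors Dlx1 (3.18, adjusted p = 0.0324) and Sp8 (3.14, adjusted p = 0.0355) were higher. Dlx1 was at 1 TPM or more in 9 of 16 aNSC and 3 of 23 qNSC cells. Dcx, the classical neuroblast marker, was seen in 5 and 3 cells (1.67, adjusted p = 0.304), and its highest value, 1592 TPM, was in a qNSC cell. Cd24a was seen in 8 and 3 cells (3.24, adjusted p = 0.0822) and Sox4 in 13 and 5 (2.24, adjusted p = 0.0875), and neither passed. The calls for Dlx1 and Sp8 were lost without any 1 of the 3 sets, that for Elavl4 without A2_1 and without A2_3, and that for Elavl3 without A2_3. Sox11 reached 1 TPM in no cell. Without the neuroblast-rich pair, 15 of 26 tested neuroblast genes were higher, and among qNSC cells Dcx stayed at or under 1.09 TPM and Cd24a at or under 1.37. The pair was set apart by its neuroblast genes, so these values follow largely from that choice and add no support.

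Within the active cells, astroglial and neuroblast genes lay opposite to each other. Over the 16 aNSC cells the list means had a Pearson correlation of −0.74 and a Spearman correlation of −0.72, given as a description since cells of a set share their source and TPM values share a total. The set means moved with this order. For A2_1, A2_2 and A2_3 the astroglial means of aNSC cells were 3.20, 2.43 and 1.93, and the neuroblast means 2.69, 3.79 and 4.67. Astroglial and ribosomal protein means had Pearson and Spearman correlations of 0.61 and 0.65 over the aNSC cells. Over the 23 qNSC cells the values were −0.73 and −0.50, and over the 21 without the pair −0.54 and −0.34. The neuroblast mean of 10 aNSC cells lay above their own astroglial mean.

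Protein synthesis gave the broadest difference. Of 82 ribosomal protein genes 81 were matched and tested, and 64 were higher and none lower in aNSC, with a median of 4.45 and all 81 differences positive. Many of these genes have processed pseudogenes, so the split of reads among copies is uncertain. Rps9, of the small subunit, ranged from 593 to 5336 TPM in aNSC (median 2268) and from 0 to 3593 in qNSC (median 2.77), a difference of 8.24 (SE 0.78, adjusted p = 0.00238). Of the 3 qNSC cells above 10 TPM for Rps9, 2 were the neuroblast-rich pair, and without them the highest was 812 TPM. Rps18 ranged from 472 to 7926 TPM (median 2740.1) and from 0 to 5179 (median 10.8), a difference of 6.44 (SE 0.81, adjusted p = 0.00591). All aNSC cells held both transcripts, and 3 qNSC cells for Rps9 and 6 for Rps18 lay at or above the lowest aNSC cell.

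The ribosomal protein list took a median of 7.70% of the TPM of an aNSC cell (5.42% to 13.3%) and 2.47% of a qNSC cell (0.614% to 7.29%). Without set A2_1, 10 of 81 genes passed at a median of 4.44, without A2_2 46 passed (median 4.28) and without A2_3 41 (median 4.53). Quantile normalization left 49 higher with a median of 3.38. Ribosomal protein transcripts often start with a run of pyrimidines, and the stretch of Rps9 around its annotated start shows such a run in capitals, 6 bases before the start, on the coding strand.
Rps9 (chr7:3704005-3704060, plus strand, GRCm38.p6): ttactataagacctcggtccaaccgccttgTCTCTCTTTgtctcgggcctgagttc

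Of 61 matched ribosomal protein genes, 33 (54.1%) held 8 or more C or T in a row within 25 bases of the start, against 22.3% of all genes in the table. Among the factors that load and feed the ribosome, 17 of 35 tested genes were higher and none lower, with a median of 3.08. Naca, of the nascent polypeptide-associated complex, had medians of 575 TPM in aNSC and 0.55 in qNSC (difference 5.94, SE 1.12, adjusted p = 0.013). Eif2s1, the alpha subunit of initiation factor eIF2, was at 1 TPM or more in 13 of 16 aNSC and 3 of 23 qNSC cells, where it never passed 1.74 TPM (5.69, SE 1.01, adjusted p = 0.0113). Eef1a1, the main elongation factor, was present in all 39 cells, with medians of 2681 and 204 TPM (4.07, SE 0.86, adjusted p = 0.0189). Ribosome assembly gave 5 higher of 21 tested (median 2.22), led by the box C/D protein gene Nop56 (6.02, adjusted p = 0.0126). Npm1, a nucleolar chaperone, had medians of 1842 and 9.81 TPM (3.88, adjusted p = 0.0274). Its highest value, 8706 TPM, was in a qNSC cell, against at most 6120 TPM in aNSC. Among these genes calls were lost without A2_1 for Eif2s1, Eef1a1, Nop56 and Npm1, without A2_2 for Npm1, and without A2_3 for Naca and Eef1a1.

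Splicing and chromatin lists had calls in 1 direction. Of 56 tested splicing genes, 24 were higher, none was lower and 32 did not pass, with a median of 2.80 against 1.15 over all tested genes. Hnrnpa1, a ribonucleoprotein that binds nuclear RNA, ranged from 0 to 4439.7 TPM in aNSC (median 2231) and from 0 to 2843 in qNSC (median 1.07), a difference of 6.90 (SE 0.90, adjusted p = 0.00591). Lsm7, which binds U6 RNA, was at 1 TPM or more in 15 of 16 aNSC and 6 of 23 qNSC cells (6.16, SE 0.79, adjusted p = 0.00591), and Nono, a paraspeckle protein gene, in 15 and 11 (6.07, SE 0.91, adjusted p = 0.00814). The highest qNSC values, 2843 TPM for Hnrnpa1, 1341 for Lsm7 and 478 for Nono, lay within or above the aNSC ranges. Of 37 tested histone variant, HMG and chaperone genes, 16 were higher, none was lower and 21 did not pass, with a median of 3.06. Hmgb3, a high mobility group protein gene, ranged from 0.33 to 3941 TPM (median 1590.2) and from 0 to 3394 (median 2.57), a difference of 7.86 (SE 0.94, adjusted p = 0.00591). The highest Hmgb3 value in qNSC was in the neuroblast-rich pair. H2afz, encoding the histone variant H2A.Z, had medians of 8036 and 24.1 TPM (5.80, adjusted p = 0.00631) and Hmgn2, a nucleosome-binding protein gene, 16817 and 292 (6.01, adjusted p = 0.00879), with copies elsewhere in the genome for both. Hnrnpa1, Nono and H2afz lost their calls without A2_1.

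Also among the 12 largest rises were Banf1, which tethers chromatin to the nuclear envelope, and Sinhcaf, of the SIN3 deacetylase complex. Banf1 ranged from 0.29 to 2037 TPM in aNSC (median 1218) and from 0 to 1603 in qNSC (median 0.92), a difference of 7.08 (SE 0.82, adjusted p = 0.00591). Sinhcaf ranged from 9.86 to 911 TPM (median 302) and from 0 to 67.7 (median 1.22), a difference of 6.24 (SE 0.78, adjusted p = 0.00591). All 16 aNSC cells held Sinhcaf, and 13 of them lay above every qNSC cell.

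Cytoskeleton genes gave 13 higher and no lower of 33 tested, with a median of 2.91. Tmsb10, which binds actin monomers, ranged from 0 to 10496 TPM in aNSC (median 1901) and from 0 to 6793 in qNSC (median 1.27), a difference of 7.51 (SE 0.94, adjusted p = 0.00591). Tubb5, a tubulin of dividing and immature cells, had medians of 2668 and 7.77 TPM (5.86, SE 1.09, adjusted p = 0.0129). Jpt1, a microtubule-associated protein gene, had medians of 1526 and 2.09 TPM (6.59, SE 0.86, adjusted p = 0.00591). The neuroblast-rich pair held the highest qNSC values of Tmsb10, Tubb5 and Jpt1. The call for Tubb5 was lost without A2_3.

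Protein folding and breakdown had smaller counts. Chaperone genes gave 9 higher of 29 tested (median 2.29), among them the chaperonin subunits Cct5 (5.88, adjusted p = 0.00675) and Tcp1 (5.37, adjusted p = 0.00879) and the heat shock protein gene Hsp90ab1 (4.90, adjusted p = 0.0113). Proteasome subunits gave 8 higher of 32 (median 2.60), led by Psmb6, with medians of 1056 and 3.45 TPM (4.70, SE 0.90, adjusted p = 0.0137). Neither list had a lower member. Cct5 and Tcp1 had their highest values in qNSC cells. Cct5 was at 1 TPM or more in 14 of 16 aNSC and 12 of 23 qNSC cells, but at 10 TPM or more in 13 and 3. For Tcp1 the counts were 16 and 13 at the lower level and 14 and 5 at the higher. Tcp1 and Psmb6 lost their calls without A2_1, and Hsp90ab1 without A2_1 and without A2_3.

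**Figure D4:**
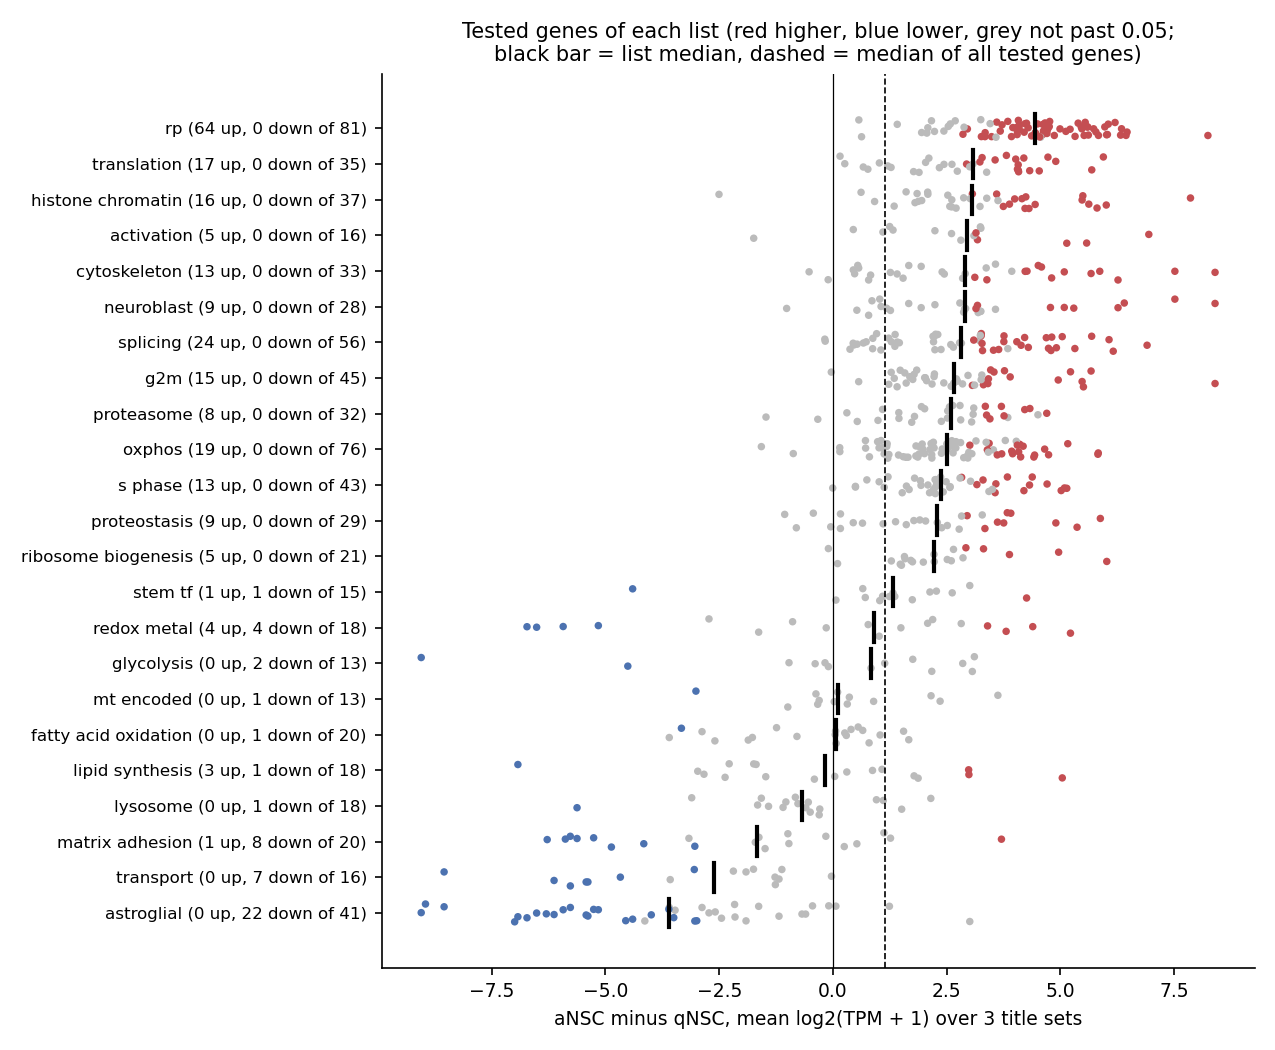
Each point is a tested gene, placed by its aNSC minus qNSC difference in log2(TPM + 1) over the 3 sets, for every list with at least 13 tested genes. Red genes were higher, blue genes lower, grey genes not past an adjusted p of 0.05; black bars are list medians and the dashed line is the median of all tested genes, 1.15. The ribosomal protein list stands highest (median 4.45) and the astroglial list lowest (median −3.60).

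Energy genes were taken by pathway. Nuclear-encoded subunits of oxidative phosphorylation gave 19 higher and no lower genes of 76 tested (median 2.51). Uqcrq, of complex III, had medians of 774 TPM in aNSC and 1.28 in qNSC (5.83, SE 0.82, adjusted p = 0.00669). Ndufa2, of complex I, was at 1 TPM or more in 13 of 16 aNSC and 5 of 23 qNSC cells (5.82, SE 0.79, adjusted p = 0.00634). The 13 genes encoded by mitochondrial DNA had a median of 0.10 and took a median of 6.62% of TPM in aNSC and 7.46% in qNSC. One of them passed, mt-Nd4l, with medians of 3.83 and 304 TPM (−3.01, SE 0.79, adjusted p = 0.0365). Of 13 tested glycolysis genes only the aldolases passed, Aldoc as above and Aldoa with medians of 2.02 and 1218 TPM (−4.51, SE 0.79, adjusted p = 0.0112). The share called in either direction was thus 15.4% of the glycolysis list (median 0.84), against 14.6% of all tested genes, and the lists were not tested against each other. The call for mt-Nd4l was lost without any 1 of the 3 sets, and that for Aldoa without A2_1 and without A2_3.

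Lipid genes were also mixed. Fabp5, a fatty acid-binding protein gene of neural progenitors, was at 1 TPM or more in 12 of 16 aNSC and 7 of 23 qNSC cells (5.04, SE 0.80, adjusted p = 0.00883). The sterol synthesis genes Fdps (2.99, adjusted p = 0.0474) and Fdft1 (2.98, adjusted p = 0.0433) were higher, and Apoe was the lower member among 18 tested. Fabp5 and Fdft1 had their highest values in qNSC cells, at 2370.2 and 824 TPM. Fatty acid oxidation gave 1 lower gene of 20 tested, Acsl3, which activates long-chain fatty acids (−3.33, adjusted p = 0.0465), and a median of 0.064. Lysosome genes gave 1 lower of 18, Cd63, and a median of −0.68. Calls for Acsl3, Fdps and Fdft1 were lost without any 1 of the 3 sets, that for Cd63 without A2_2 and without A2_3, and that for Fabp5 without A2_1.

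Malat1 ranged from 1609 to 31543 TPM in aNSC (median 14554) and from 22745 to 446074 in qNSC (median 106439), a difference of −3.29 (SE 0.80, adjusted p = 0.0311). The ranges overlapped only between 22745 and 31543 TPM. The call was lost without any 1 of the 3 sets, after quantile normalization, with the median over cells and with a pseudocount of 0.1. Immediate early genes, which dissociation can induce, gave no call in 4 tested, and interferon response genes none in 4 (limma; 1 and 0 at an unadjusted p under 0.05). Of the lists for other cell types, Rarres2 from the ependymal list (−3.54, adjusted p = 0.0254; 0 of 16 and 8 of 23 cells) and Slco1c1 from the endothelial list (−3.14, adjusted p = 0.0498; 1 and 9 cells) passed. Both calls were lost without any 1 of the 3 sets. That for Slco1c1 was also lost with the median over cells, after rescaling, without the block and with a trend in the variance prior. Slco1c1, a thyroid hormone transporter, is also made by astrocytes. The other members of both lists were too low to test.

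The stage difference was then compared with that at the other ages of the series, 5 weeks (32 aNSC and 17 qNSC cells) and 7 months (10 and 19). At each age the difference was taken in 3 title sets, and each difference between ages was tested with limma over 4206 genes. No gene passed against 5 weeks (0.0% called, 208 at an unadjusted p under 0.05, smallest adjusted p = 0.81) or against 7 months (0.0%, 346 at an unadjusted p under 0.05, smallest adjusted p = 0.35). So no stage difference could be called particular to 7 weeks. Stmn1 differed by 3.62, 8.40 and 5.54 at 5 weeks, 7 weeks and 7 months, and Rps18 by 1.10, 6.44 and 3.98. Aldoc differed by −6.46, −9.05 and −7.71. Fabp5 had 2.18, 5.04 and −1.86, and mt-Nd4l 0.97, −3.01 and 1.00, so the sign of a called gene could differ between ages. The ribosomal protein list had medians of 2.64, 4.45 and 3.39, and the mitosis list 2.64, 2.66 and 0.14. The medians of all tested genes were 0.58, 0.97 and 0.40, to be read beside the list medians.

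**Figure D5:**
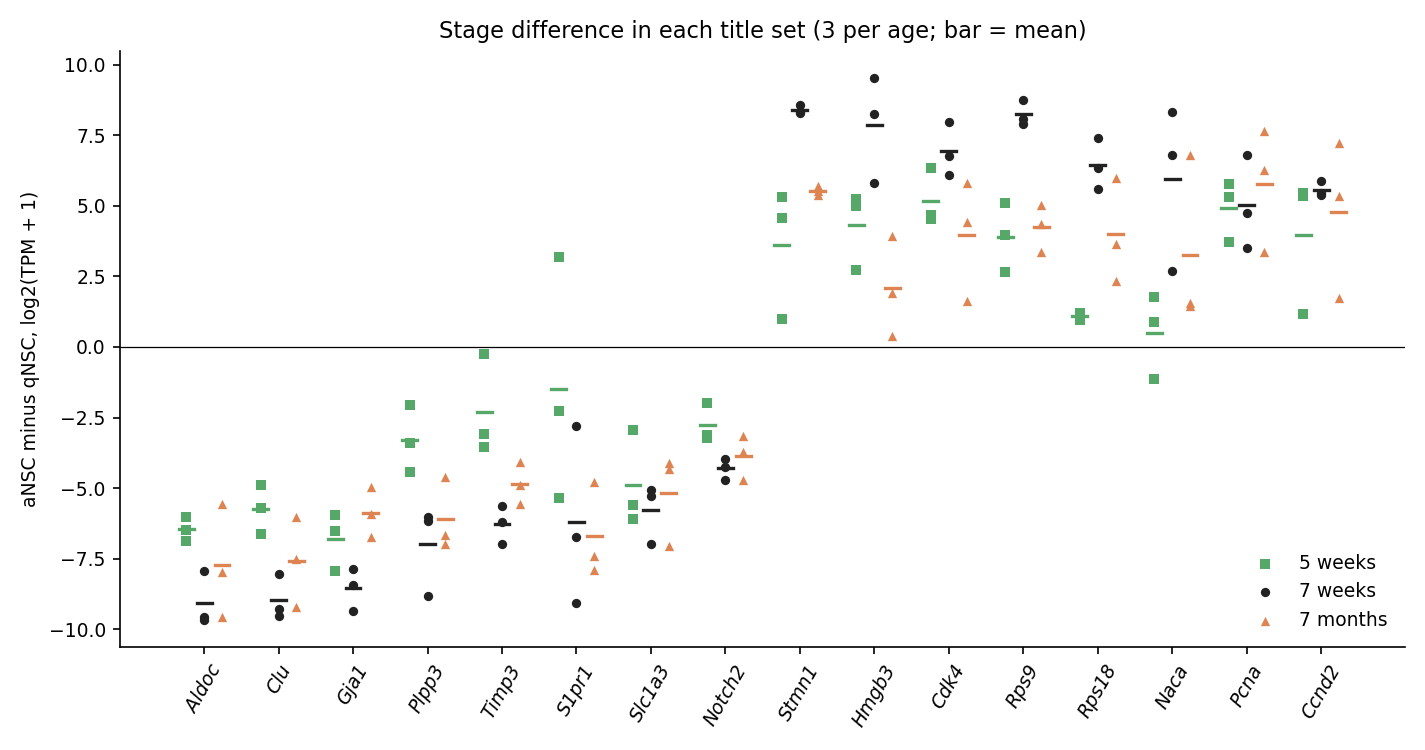
Each point is the aNSC minus qNSC difference in log2(TPM + 1) of 1 gene in 1 title set, 3 sets per age, with bars at the mean of the 3. The 8 genes on the left were lower and the 8 on the right higher in aNSC at 7 weeks (black). Their mean difference had the same sign at 5 weeks (green) and 7 months (orange), with single sets crossing 0 for S1pr1 and Naca at 5 weeks. The plotted genes were picked without a rule, and other called genes, such as Fabp5 and mt-Nd4l, changed sign between ages.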

How the data were processed

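The authors deposited a single TPM matrix with 37621 rows and 144 columns. It was made with RSEM 1.2.15 on the mm9 assembly, according to the submitters' processing notes. Aligner, annotation and filters are not given in the sources used here. Of the rows, 32897 could be given a symbol through their Ensembl ID. The columns of the 39 cells summed to between 975278 and 1000000 and were used as deposited.

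Cells are not replicates, so log2(TPM + 1) was averaged over the cells of each stage and title set, giving 6 values per gene. Genes with a mean of at least 1 entered a linear model in limma 3.58.1 (R 4.3.3) with title set as a block, two-sided, with Benjamini-Hochberg adjustment over all tested genes and a threshold of 0.05. The comparison of ages used the 3 per-set differences of each age, with a near-identical pair of 5-week cells averaged. The code was tested on simulated data. Limits for a count of 0 were set by 3 cells and cover counting error only.

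Named genes were the 12 largest changes per direction, leaving out predicted and ribosomal protein genes, up to 4 called members of each of 38 lists, and a panel. A few that this rule picked are not reported here. Others named were list members picked after their values were seen. The cells, lists and panel were chosen with earlier results of these data known, and 18 list members matched no row. Alternatives covered the pseudocount, filter, averaging, scaling, block, variance prior, a covariate and left-out cells or sets. Leaving out the neuroblast-rich pair was added after seeing the data.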

Additional observations from a re-analysis of the deposited data

How the results depend on the processing

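Without the filter, with the log2 taken after averaging TPM, and with genes detected as a covariate beside the block, 0 genes were higher and 0 lower at 7 weeks (limma; 1497, 668 and 448 at an unadjusted p under 0.05). The cause was not tested. The median over cells gave 182 higher and 14 lower, and quantile normalization 249 and 225, of which 248 and 68 were called before. Leaving out a title set gave 45 to 291 higher and 16 to 40 lower, with 2 pairs left in the fit. Without the block for title set the counts were 458 and 65. Means of the same set had correlations of their deviations of 0.097, 0.072 and 0.13. The highest with another set were −0.006, −0.018 and −0.058. All were small, so the pairing rests on the titles. The other alternatives gave 404 to 559 higher and 57 to 87 lower. Comparisons between ages gave 0 genes under every alternative run for them, each with limma (84 to 519 at an unadjusted p under 0.05).

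Among genes that did not pass, signs changed. With the log2 taken after averaging TPM, Nr2e1 was at −1.02, Id4 at −2.80, Sox2 at −0.15 and Vim at −0.30. With the covariate, Nr2e1 was at −1.68, gfp at −0.96, Id4 at −1.38, Egfr at −0.58 and Cdk1 at −0.68. Quantile normalization put Id4 at −0.59, Sox2 at −0.48 and Vim at −0.24. Id4 was at −0.0032 after rescaling, −0.18 without the 10% of cells with the fewest genes and −0.12 without the neuroblast-rich pair, and Fgfr3 at 0.0082 with a pseudocount of 0.1. Leaving out a title set moved Id4 between −0.70 and 1.16, Sox2 between −0.32 and 1.53, Fgfr3 between −0.71 and 0.84 and Vim between −2.38 and 2.46.

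The table holds no read counts, so no depth limit per cell was computed, and absence was not established for any transcript.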
